A study of Homo sapiens with 4 samples.

Results

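Cohesin loops of the epidermal differentiation complex were described in GM12878 cells, with attention to S100A13, S100A14 and IVL. The locus was taken as chromosome 1 from 152000000 to 154000000 in build hg38, and its members are the listed loops with at least 1 anchor there. These were 73 of the 41846 loops listed in any of 4 libraries. The method was HiChIP, in which chromatin ends close in space are ligated and the fragments bound by a chosen protein, here the cohesin subunit SMC1, are pulled down. GM12878 is a human B cell line made immortal by Epstein-Barr virus, and it was taken as the 1 line of every library. Titles of the samples give a different lymphoblastoid line, but the other labels that name a line give GM12878. The APH library came from cells treated for 18 h with 0.4 µM aphidicolin, an inhibitor of replicative DNA polymerases, and the DMSO library from cells given its vehicle, dimethyl sulfoxide. The HU library came from cells treated for 18 h with 0.2 mM hydroxyurea, which lowers the supply of deoxynucleotides, and the H2O library from cells given water. The question the design poses is what slowed replication does to cohesin loops. With 1 library in each group, a difference below is between libraries, has no replicate to check it and gets no p-value. The 3 genes were picked with the APH vs DMSO and HU vs H2O ratios of these libraries known, so their ratios are descriptions.

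The epidermal differentiation complex gathers genes for the outer layers of skin. It holds the cornified envelope precursors, among them IVL, which encodes involucrin, a protein cross-linked by transglutaminases under the membrane of differentiating keratinocytes. It also holds the fused-type S100 genes such as those of the filaggrin family, and most S100 genes, which encode small calcium-binding proteins with EF hands. S100A13 encodes a member that takes part in the release of signal proteins lacking a secretion signal, and S100A14 a member found mostly in epithelia. Cohesin extrudes loops of chromatin that often end at CTCF sites, and when 1 end stays fixed while the other moves, its contacts form a series along the neighbouring DNA. Contacts are not expression, and no RNA was measured here.

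The promoters of the named genes that lie inside loop anchors are shown, 250 bases before to 50 after each start, from RefSeq (GRCh38.p14, the build of hg38). All 3 named genes had an entry. Capitals mark matches on either strand to TGANTCA, the AP-1 motif, and to TATAAA, the TATA box. The core of the CTCF motif was searched as well. The IVL promoter (chr1:152908296-152908595, plus strand) lies in the right anchor of the IVL loop listed in all 4 libraries. The S100A14 promoter (chr1:153616276-153616575, minus strand) and an internal S100A13 promoter (chr1:153627456-153627755, minus strand) lie in the right anchors of the 2 loops on which the S100A13 values rest. The S100A2 promoter (chr1:153565795-153566094, minus strand) lies in the anchor that 9 loops from its left share.
IVL: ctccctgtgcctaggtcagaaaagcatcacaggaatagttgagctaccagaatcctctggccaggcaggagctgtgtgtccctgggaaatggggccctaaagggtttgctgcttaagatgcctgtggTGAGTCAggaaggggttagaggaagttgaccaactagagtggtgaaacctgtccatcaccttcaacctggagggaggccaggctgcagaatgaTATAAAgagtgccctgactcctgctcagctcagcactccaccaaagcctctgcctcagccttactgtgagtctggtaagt
S100A14: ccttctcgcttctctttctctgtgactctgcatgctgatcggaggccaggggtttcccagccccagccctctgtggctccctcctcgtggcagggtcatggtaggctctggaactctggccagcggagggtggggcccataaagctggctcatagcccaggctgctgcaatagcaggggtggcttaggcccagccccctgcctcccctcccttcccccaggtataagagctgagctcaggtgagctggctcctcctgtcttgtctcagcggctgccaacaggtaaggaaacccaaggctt
S100A13: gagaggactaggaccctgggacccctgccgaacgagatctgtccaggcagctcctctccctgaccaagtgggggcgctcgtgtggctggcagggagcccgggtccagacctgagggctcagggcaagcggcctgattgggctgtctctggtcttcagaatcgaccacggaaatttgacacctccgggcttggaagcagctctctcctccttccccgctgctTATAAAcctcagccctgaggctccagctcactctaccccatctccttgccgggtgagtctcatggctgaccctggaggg
S100A2: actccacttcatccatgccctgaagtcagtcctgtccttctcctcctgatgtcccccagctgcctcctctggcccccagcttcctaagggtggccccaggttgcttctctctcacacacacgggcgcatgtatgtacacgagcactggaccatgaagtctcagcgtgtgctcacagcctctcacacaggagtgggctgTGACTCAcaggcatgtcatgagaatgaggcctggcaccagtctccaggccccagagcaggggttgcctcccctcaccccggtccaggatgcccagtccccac

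IVL held an AP-1 match at -123 and a TATA box at -30 from the start, S100A13 a TATA box at -29, and S100A2 an AP-1 match at -52. S100A14 matched none of the 3 motifs in this window. Of 83 distinct promoters of the locus, 21 (25.3%) held the AP-1 letters and 33 (39.8%) the TATA letters, against 7.70% and 11.6% of 34683 promoters on the chromosomes used. The CTCF motif core was found in 1 of the 83, that of SPRR5, against 2.41% of all. A promoter window covers a small part of a 5 kb anchor, and the rest of each anchor was not searched.

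The APH library listed 54 loops in the locus with 1635 contact counts, DMSO 34 with 915, HU 49 with 1448 and H2O 42 with 1044. As a share of all loops listed this was 0.197% in APH (0.148 to 0.257, a 95% exact binomial interval), 0.193% in DMSO (0.133 to 0.269), 0.228% in HU (0.169 to 0.302) and 0.187% in H2O (0.135 to 0.253). These intervals overlap. A list holds only called loops of at least 12 counts, so a pair absent from a list may still have contacts, and how many are listed moves with depth. The locus was loop-rich: a window of 2 Mb with any listed loop had a median of 16 loops in APH, 11 in DMSO, 13 in HU and 14 in H2O. Its loops were also short, with medians of 60 kb in APH, 52.5 kb in DMSO, 60 kb in HU and 60 kb in H2O, against 95, 110, 95 and 105 kb over the whole lists in the same order. Of all 19974 protein-coding genes, 9473 (47.4%) carried an anchor of a listed loop in any library. A short gene body offers less room for an anchor to overlap, and no share of genes here was adjusted for gene length. Against this share, 10 of 11 B cell genes carried a listed loop (CD79B had none), and 2 of 7 keratinocyte genes outside the locus did, KRT14 and TP63. Of 4 T cell and 4 myeloid genes, 3 each carried one in at least 1 library, so a listed loop alone does not mark the cell type.

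**Figure D1:**
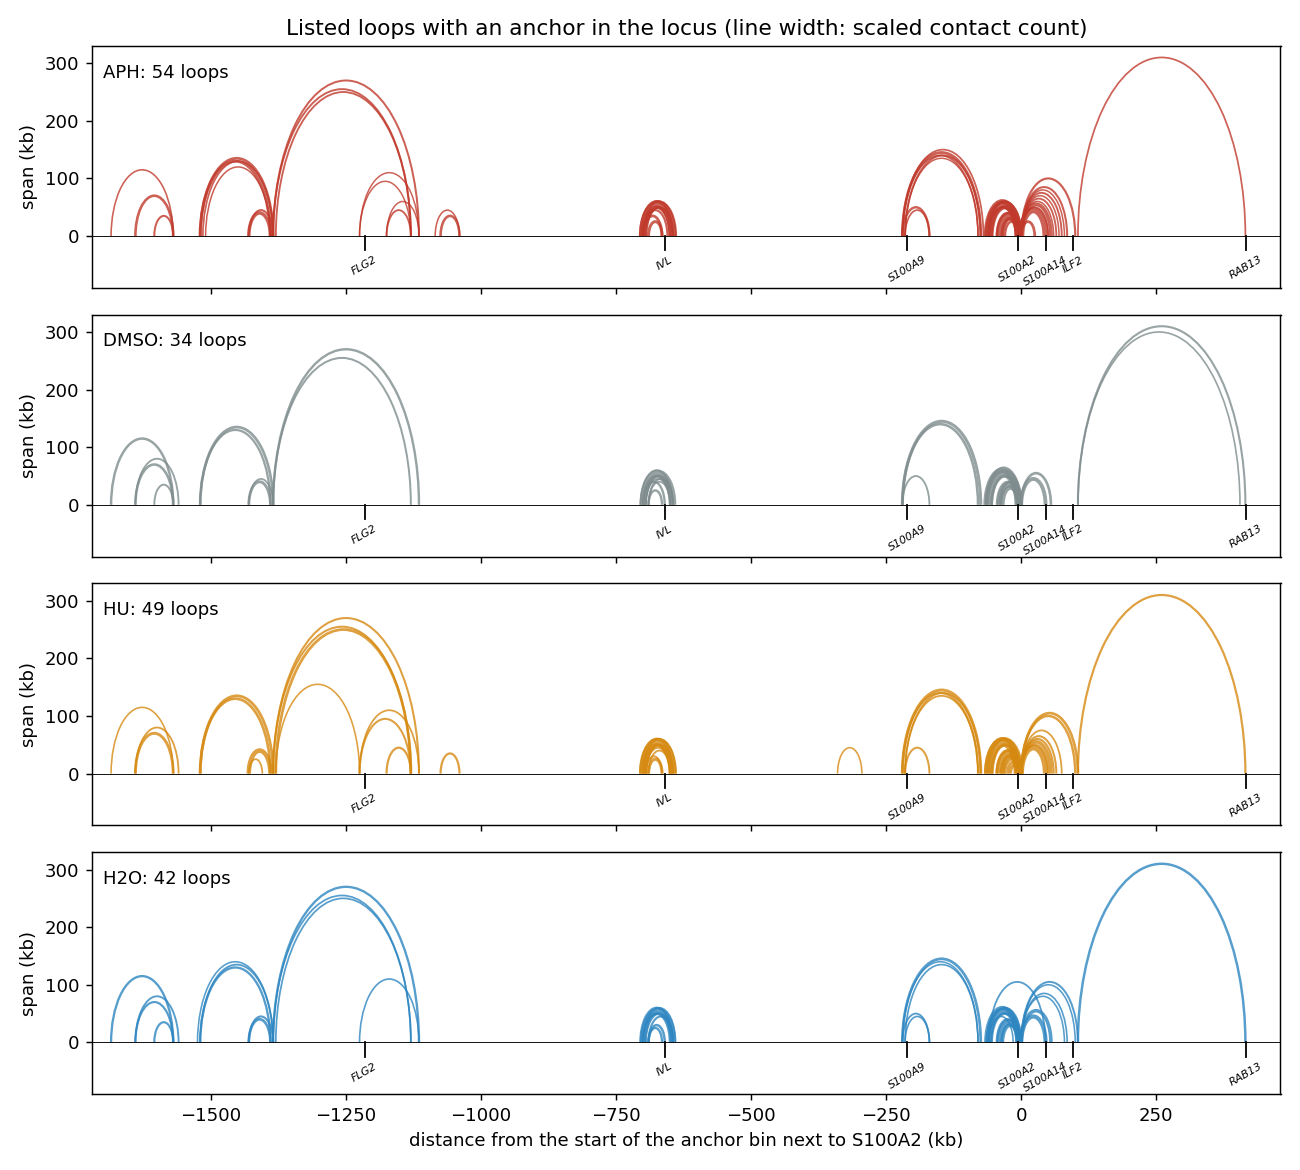
Arcs are listed loops in APH, DMSO, HU and H2O, drawn by distance in kb from the bin next to S100A2, with height showing the span and line width the scaled count. Loops gather in a few clusters, and the series rising rightward from 0 has 11 arcs in APH, 2 in DMSO, 8 in HU and 6 in H2O; unlisted pairs are not drawn and are not measured as 0.

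Loops were not spread over the locus but stood in separate clusters with empty stretches between them. Of 77 protein-coding genes in the window, 19 (24.7%) carried an anchor of a listed loop in any library, a lower share than the 47.4% of all genes, and 10 carried one of a loop listed in all 4. None of the 19 late cornified envelope genes, which encode envelope proteins of the uppermost skin layers, had an anchor. Most of them lie in a stretch of 330 kb (152535001 to 152865000) that no listed loop touched or crossed. The SPRR genes, which encode small proline-rich envelope proteins, lie in another such stretch, of 295 kb (152935001 to 153230000). A further stretch of 295 kb (153680001 to 153975000), which covers INTS3 to CREB3L4 and parts of NPR1 and JTB, held no anchor between its ends and was crossed by 2 loops. Of the 17 genes on the list of cornified envelope precursors, only IVL and SMCP carried loops. SMCP is a sperm mitochondrial protein gene and not a precursor gene. Of 7 fused-type S100 genes only FLG2, a filaggrin family gene, did, and neither peptidoglycan recognition gene did. Of 16 S100 genes found in the gene table, 11 did, with S100A10 lying outside the window. These counts stand beside the same 47.4% of all genes, with no adjustment for gene length. Many genes of the window are short, so whether their loops are fewer than their length allows was not tested.

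S100A14 and S100A13 are contacted mainly from 1 bin, 153570001 to 153575000, which carries no protein-coding gene and adjoins the anchor that holds the S100A2 promoter. The loop of 45 kb from this bin to S100A14 had 86 counts in APH, 39 in DMSO, 63 in HU and 47 in H2O. Both drug libraries were above both vehicle libraries. After scaling by each library's total over the 9529 loops listed in all 4, the log2 ratio was 0.81 for APH vs DMSO (95% exact conditional interval 0.25 to 1.40), while HU vs H2O stood at 0.44 (-0.13 to 1.02). The difference between the vehicles, H2O vs DMSO, was 0.15 (-0.49 to 0.80). H2O alone also listed a contact of 105 kb with this anchor, of 15 counts, starting at a bin left of S100A6. All intervals here cover counting error only. They may be too narrow if copies made by PCR were counted, and whether such copies were removed is not stated.

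The next loop of the same bin, of 55 kb, reaches the internal S100A13 promoter and S100A1, an S100 gene best known from heart muscle, which overlaps S100A13 on the other strand. It had 48 counts in APH, 24 in DMSO, 38 in HU and 39 in H2O. Here DMSO stood below the other 3 libraries, which lay close together. Its log2 ratio was 0.67 for APH vs DMSO (-0.06 to 1.44), -0.021 for HU vs H2O (-0.71 to 0.66) and 0.58 for H2O vs DMSO (-0.19 to 1.38). S100A13 takes in both loops, since the S100A14 anchor also holds its 3′ end. It had 134 counts in APH, 63 in DMSO, 101 in HU and 86 in H2O, with ratios of 0.76 (0.32 to 1.22) for APH vs DMSO, while HU vs H2O stood at 0.25 (-0.18 to 0.68). The genes S100A14, S100A13 and S100A1 are thus 2 loops and not separate values.

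The caller's expected count differed between the libraries at these loops as well. At the S100A14 loop it was 9.84 in APH, 5.54 in DMSO, 8.59 in HU and 7.59 in H2O, so that the observed count was 8.74, 7.04, 7.33 and 6.19 times the expected one in the same order. Divided by the expected counts, the APH vs DMSO ratio of S100A14 was 0.28 (-0.29 to 0.86) and that of S100A13 0.21 (-0.24 to 0.66), and both intervals included a ratio of 1. What sets the expected count was not tested. With each library scaled by all its listed loops the ratios were 0.44 (-0.13 to 1.02) for S100A14 and 0.38 (-0.06 to 0.84) for S100A13, again with intervals that included a ratio of 1. Against H2O in place of DMSO, APH stood at 0.66 (0.13 to 1.21) for S100A14 and 0.43 (0.03 to 0.84) for S100A13. HU against DMSO in place of H2O stood at 0.59 (-0.0076 to 1.21) and 0.58 (0.11 to 1.06), so the interval of S100A13 lay above a ratio of 1 for HU with this vehicle and not with its own. With anchors matched within 1 bin, neighbouring pairs were summed, and a pair unlisted in a library added 0 to it. S100A14 then stood at 0.98 (0.43 to 1.55) in the APH contrast and 0.95 (0.42 to 1.49) in the HU contrast. S100A13 stood at 0.96 (0.53 to 1.40) and 0.81 (0.42 to 1.21), and all of these intervals lay above a ratio of 1. The S100A14 sum takes in a loop of 50 kb with 18 counts in APH and 24 in HU, unlisted in both vehicles. An unlisted pair is not a measured 0, so these values are no check of those from exact bins.

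Beyond these 2 loops, the same bin was joined to a run of neighbours that most often appeared in the drug libraries. It had 12 listed partners in APH, 4 in DMSO, 9 in HU and 7 in H2O, counting partners on both sides. Of the anchor bins of each list, 0.209% had as many or more partners in APH, 8.99% in DMSO, 0.419% in HU and 1.70% in H2O, where the median bin had 1. CHTOP had 4 listed loops with 64 counts in APH and 3 with 52 counts in HU, and none in either vehicle. To the right the bin contacted S100A13, S100A1, CHTOP, which encodes an mRNA export factor, SNAPIN, which encodes a SNARE-associated protein, ILF2, which encodes an RNA-binding protein, and NPR1, a natriuretic peptide receptor gene. Loops of 50, 60, 65 and 75 kb were listed in APH (18, 14, 18 and 19 counts) and HU (24, 20, 18 and 14 counts) and in neither vehicle. The loop of 100 kb to ILF2 had 23 counts in APH, 23 in HU and 12 in H2O and was not listed in DMSO. Loops of 80 and 85 kb were listed in APH (13 and 21 counts) and H2O (12 and 13 counts) alone. That of 105 kb was listed in HU (26 counts) and H2O (17 counts) alone. To the left, loops of 40 kb from S100A6 (17 counts) and of 65 kb (14 counts) were listed in DMSO alone. A left loop of 60 kb was listed in APH (19 counts), HU (16 counts) and H2O (19 counts). Most of these counts lie near the smallest listed count of 12, so a small difference in depth can decide whether such a pair is listed.

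**Figure D2:**
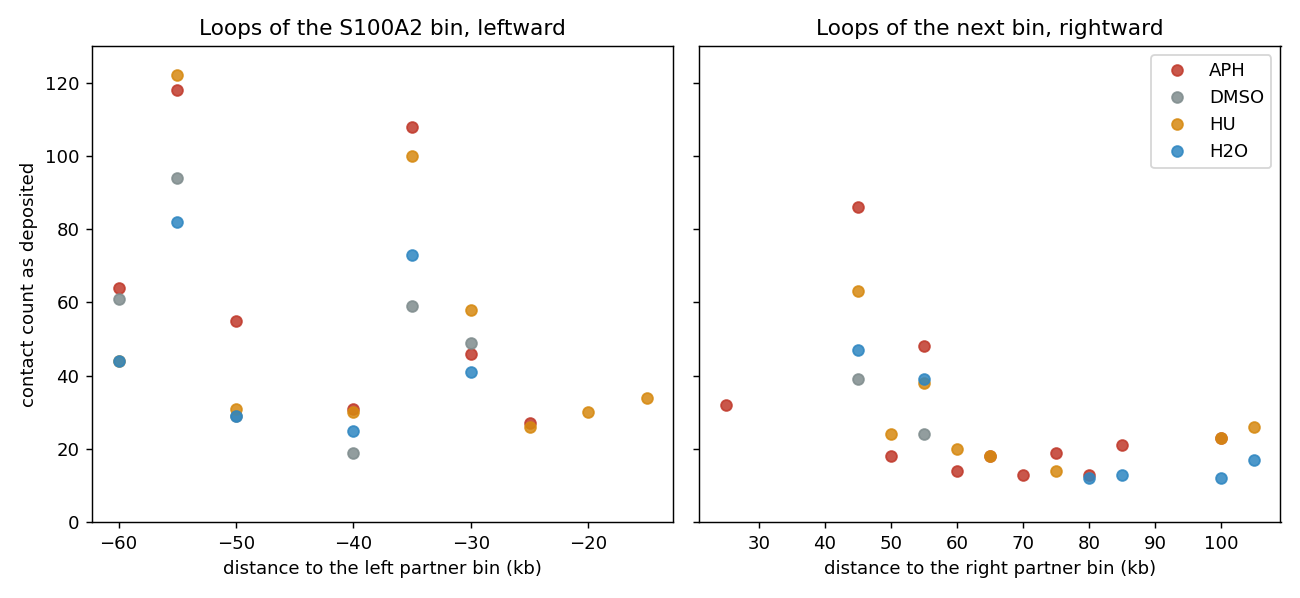
Points are deposited contact counts of listed loops by distance in kb, leftward from the bin that holds the S100A2 promoter (left) and rightward from the next bin (right), in APH, DMSO, HU and H2O. On the right DMSO has 2 points, at 39 and 24 counts, while APH continues to 100 kb and HU to 105 kb at counts between 13 and 26 past 55 kb. H2O also has points from 80 to 105 kb, at counts between 12 and 17. Pairs not listed have no point.

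Leftward, the bin that holds the S100A2 promoter ends loops of S100A6, S100A5, S100A4 and S100A3. S100A2 encodes an S100 protein of basal keratinocytes. It carried 6 loops listed in all 4 libraries, with 422 counts in APH, 311 in DMSO, 385 in HU and 294 in H2O. The ratio was 0.11 (-0.10 to 0.33) for APH vs DMSO, whose interval included a ratio of 1, and 0.41 (0.18 to 0.63) for HU vs H2O. H2O vs DMSO was -0.20 (-0.43 to 0.04). The choice of vehicle changed these calls: against H2O the interval of APH at S100A2 lay above a ratio of 1, and against DMSO that of HU did not.

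The loop of the locus with most counts summed over the 4 libraries, of 55 kb and with its left end in an intergenic bin beyond S100A6, had 118 counts in APH, 94 in DMSO, 122 in HU and 82 in H2O. Its APH vs DMSO ratio was 0.00019 (-0.40 to 0.41), while HU vs H2O was 0.59 (0.17 to 1.01). The loop of 35 kb between S100A6, which encodes calcyclin, and S100A2 had 108 counts in APH, 59 in DMSO, 100 in HU and 73 in H2O. Both drug libraries were above both vehicles there, and it was the only locus loop with intervals above a ratio of 1 in both contrasts, at 0.54 (0.07 to 1.03) and 0.47 (0.02 to 0.93). The loop of 60 kb went another way, with 64 counts in APH, 61 in DMSO, 44 in HU and 44 in H2O. It was the single locus loop that differed between the vehicles, at -0.59 (-1.18 to -0.0051), with H2O lower, against 1.36% of all loops. S100A6 as a whole had 154 counts in APH, 108 in DMSO, 158 in HU and 114 in H2O, with ratios of 0.18 (-0.18 to 0.55) and 0.49 (0.13 to 0.85). Loops on S100A4 and S100A3, genes for further small S100 proteins, were listed in HU with 56 and 30 counts and in APH with 27 counts for S100A4, and in neither vehicle. The loop of 20 kb that gives S100A3 its 30 counts is also part of the S100A4 sum. In HU this loop stood at 2.31 times its expected count and that of 25 kb from S100A4 at 2.43, near the smallest listed value of 2.00. The loop of 25 kb between S100A4 and S100A2, with 27 counts in APH and 26 in HU, had the highest sum over APH and HU among those listed in both drug libraries alone. By APH counts alone the loop of 35 kb that begins at 152495001 had more, with 29 counts in APH and 20 in HU.

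IVL and SMCP lie inside a compact loop. This loop of 55 kb had 123 counts in APH, 78 in DMSO, 101 in HU and 73 in H2O, and neither of its anchors holds a protein-coding gene. By count it was number 214 of 27395 loops in APH, 399 of 17660 in DMSO, 228 of 21448 in HU and 602 of 22446 in H2O. Its ratio was 0.33 (-0.09 to 0.76) for APH vs DMSO, while HU vs H2O stood at 0.48 (0.04 to 0.94). The gene itself was touched by a single loop listed in all 4 libraries, of 25 kb from SMCP to the bin of the IVL promoter printed above, with 35 counts in APH, 21 in DMSO, 33 in HU and 22 in H2O. Both drug libraries again had more counts than both vehicles. The intervals of its ratios, 0.41 (-0.41 to 1.26) and 0.60 (-0.22 to 1.45), included a ratio of 1, so a difference was not detectable at this depth. The 5 loops around IVL and SMCP listed in all 4 libraries together had 248 counts in APH, 161 in DMSO, 218 in HU and 165 in H2O, with ratios of 0.30 (0.0034 to 0.59) and 0.42 (0.12 to 0.72). Divided by the expected count, the IVL ratios were 0.062 (-0.76 to 0.92) and 0.18 (-0.64 to 1.03). With anchors matched within 1 bin they were 0.30 (-0.52 to 1.15) and 0.15 (-0.46 to 0.76), both lower than with exact bins. Here too a neighbouring pair unlisted in a library added 0 to it.

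Around the filaggrin family genes, the loop of 40 kb that spans RPTN, the repetin gene, had 43 counts in APH, 27 in DMSO, 52 in HU and 27 in H2O, with ratios of 0.34 (-0.38 to 1.09) and 0.96 (0.26 to 1.69). The 5 loops of that stretch listed in all 4 libraries together had 149, 108, 142 and 101 counts in the same order, with ratios of 0.14 (-0.23 to 0.51) and 0.51 (0.13 to 0.89). Near S100A8 and S100A9, which encode calprotectin of neutrophils and monocytes, 2 loops were listed in all 4 libraries, neither of them on the genes themselves. They had 49 counts in APH, 52 in DMSO, 51 in HU and 40 in H2O, and both intervals included a ratio of 1. FLG2 carried 2 listed loops with 24 counts in APH, none in DMSO, 3 with 44 counts in HU and 1 with 13 counts in H2O. S100A9 carried 3 loops in APH, none in DMSO, 3 in HU and 2 in H2O. S100A8 carried 2 with 42 counts in APH, 1 with 14 in DMSO, 1 with 17 in HU and 2 with 28 in H2O. The loop of 45 kb between S100A9 and S100A8 counts for both genes. The longest loop, of 310 kb between NPR1 and RAB13, a gene for a small GTPase of cell junctions, had 16 counts in APH, 17 in DMSO, 20 in HU and 24 in H2O. After scaling it stood lower in each drug library than in its vehicle, at -0.42 (-1.50 to 0.66) and -0.25 (-1.18 to 0.67), with intervals that included a ratio of 1.

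**Figure D3:**
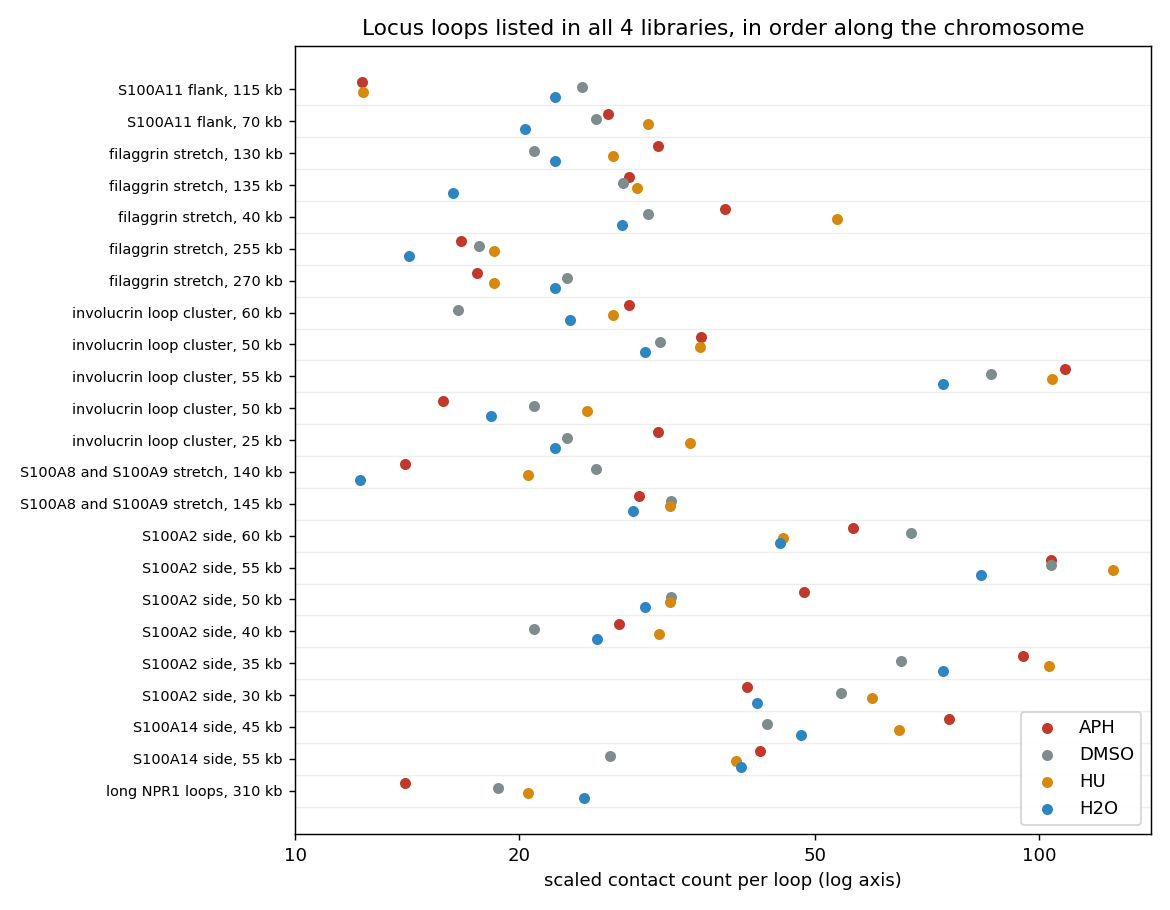
Each row is 1 of the 23 locus loops listed in all 4 libraries, named by cluster and span in kb, and points are scaled contact counts on a log axis in APH, DMSO, HU and H2O. HU lies right of H2O in 19 of the 23 rows, and APH lies right of DMSO in 14.

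Over the 23 loops listed in all 4 libraries, the locus had 1062 counts in APH, 757 in DMSO, 958 in HU and 752 in H2O. The scaled log2 ratio was 0.16 (0.02 to 0.30) for APH vs DMSO, 0.37 (0.23 to 0.50) for HU vs H2O and -0.13 (-0.27 to 0.02) for H2O vs DMSO. The drug libraries thus stood above their vehicles by more than counting error, and H2O stood below DMSO by less than counting error. Against the exchanged vehicles the ratios were 0.29 (0.15 to 0.42) for APH vs H2O and 0.24 (0.10 to 0.38) for HU vs DMSO. The APH direction rests on the scaling. With each library scaled by all its listed loops, every APH vs DMSO ratio moves by -0.38 and the locus stands at -0.22 (-0.35 to -0.08), while HU vs H2O moves by 0.05 and stands at 0.41. Divided by expected counts the locus ratios were 0.016 (-0.12 to 0.15) and 0.17 (0.03 to 0.31).

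Among 405 windows of 2 Mb with at least 10 loops listed in all 4 libraries, 5 had a higher HU vs H2O ratio than the locus and 27 a higher APH vs DMSO ratio. The middle of these windows was -0.016 for HU vs H2O and -0.0048 for APH vs DMSO. Intervals lay above a ratio of 1 for 12.6% of windows in HU vs H2O and 6.91% in APH vs DMSO, so the locus is 1 of a number of such windows. They lay below for 12.6% and 7.9%. In H2O vs DMSO, where 2.22% of windows lay above and 2.72% below, 370 windows stood higher than the locus. The locus was drawn around genes picked with the drug contrasts known. Its place among windows in those contrasts is therefore a description.

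**Figure D4:**
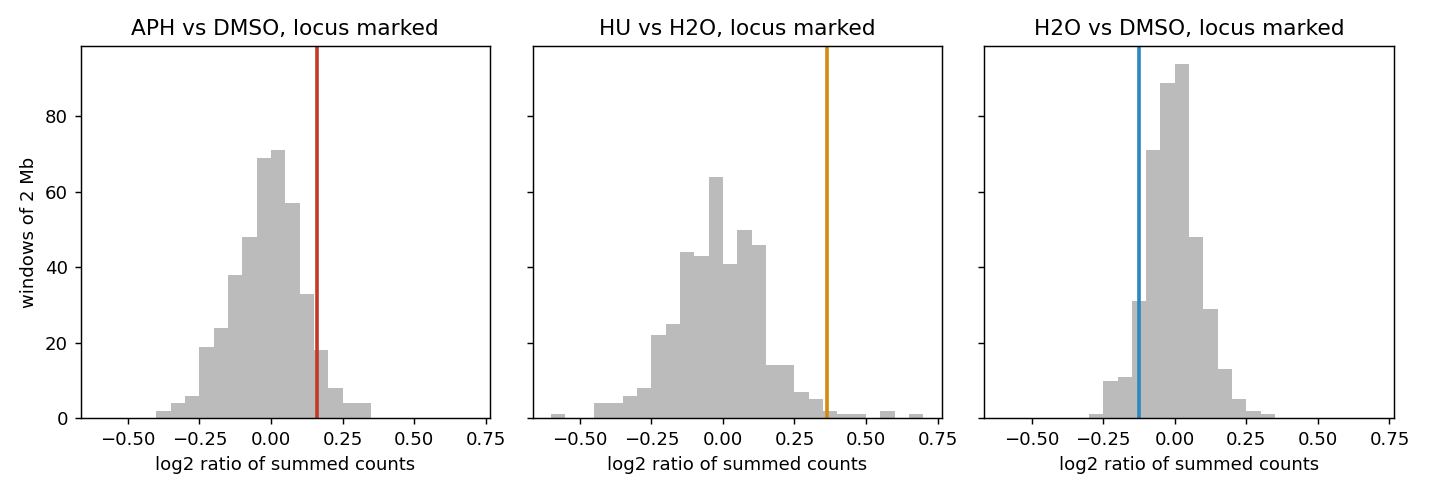
Bars count 405 windows of 2 Mb by the log2 ratio of their summed counts in APH vs DMSO, HU vs H2O and H2O vs DMSO, and the vertical line marks the locus. The locus is at 0.16, 0.37 and -0.13 in these panels.

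Loop by loop, the interval lay above a ratio of 1 for 2 of the 23 loops in APH vs DMSO, against 2.76% of 9529 loops, and for 4 in HU vs H2O, against 3.92%. No locus loop lay below in either contrast, against 2.74% and 3.45%. The 23 include loops of genes picked with these ratios known, such as the S100A14 loop, so these counts are descriptions. In H2O vs DMSO none lay above, against 1.26%. Scaled by all listed loops, the APH counts turned to 0 above and 4 below. The median log2 ratio was 0.055 over the 23 loops and -0.023 over all loops in APH vs DMSO, and 0.38 and -0.0067 in HU vs H2O. Of the 73 loops, 9 were listed in both drug libraries and neither vehicle, which is 12.3% against 5.69% of all loops, and 1 in both vehicles and neither drug library, against 2.03%. Loops listed in drug libraries alone, in either or both, were 25 of 73, which is 34.2% against 34.0% of all loops, and those listed in APH alone were 13.7% against 18.3%. The loop of both vehicles alone joins SMCP to a bin beyond IVL with 15 counts in DMSO and 19 in H2O.

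Gene by gene, 4 genes of the locus had at least 100 counts in each drug contrast. S100A14 and S100A13 lay above a ratio of 1 in APH vs DMSO, the contrast they were chosen from, against 4.76% of 2520 genes, and S100A6 and S100A2 did so in HU vs H2O, against 8.28% of 2452. No locus gene lay below in either, against 5.16% and 8.24%, and none of 3 lay above or below in H2O vs DMSO, against 1.93% and 2.76%. These pairs of genes share loops within each pair, and the difference between the drugs at them was not tested. Over 6 S100 genes with loops listed in all 4 libraries the median ratio was 0.43 in APH vs DMSO, where S100A5 was lowest (-0.42, -1.03 to 0.19), and 0.42 in HU vs H2O, where S100A5 was highest (0.52, -0.09 to 1.13). Over all 4831 genes with such loops the medians were -0.015 and 0.0024. Among the flanking genes on the list, NPR1, RAB13 and THEM4 had such loops, with medians of -0.42 and -0.25, which are the values of the single loop that NPR1 and RAB13 share. The 6 S100 genes are not separate values either, since S100A14, S100A13 and S100A1 rest on 2 loops. The S100A5 loop also counts for S100A6 and S100A2. S100A13 and S100A14 were picked with these ratios known, so the S100 medians are descriptions.

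**Figure D5:**
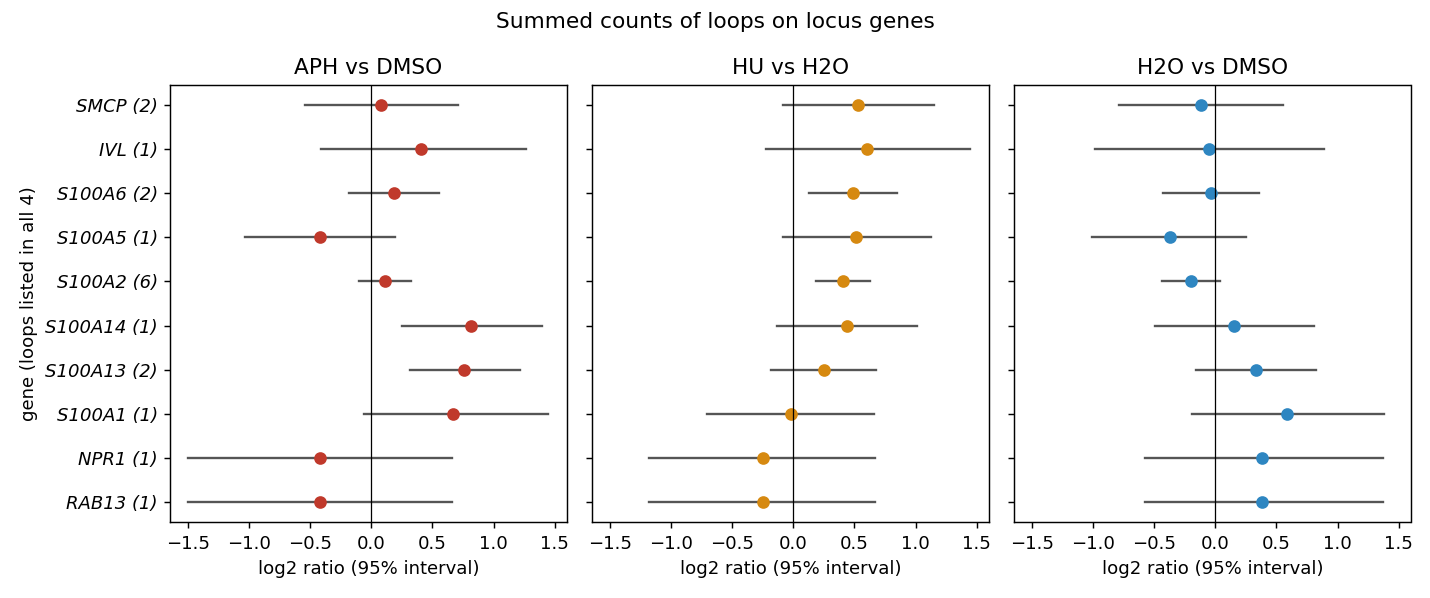
Points are log2 ratios of summed loop counts for the 10 locus genes with loops listed in all 4 libraries, with 95% intervals of counting error, in APH vs DMSO, HU vs H2O and H2O vs DMSO. S100A14 (0.81) and S100A13 (0.76) lie above 0 in the first panel, and S100A6 (0.49) and S100A2 (0.41) in the second.

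The genes outside the locus with the closest pattern over the 4 libraries were found by the distance between centred log2 scaled counts, among 3826 genes with at least 100 counts in all. For S100A14 they were ACP3 (distance 0.064), KIF19 (0.084), GPT2 (0.11), ARHGEF16 (0.13) and MAPK8 (0.13), against a median distance of 0.71. For S100A13 they were CFAP77 (0.054), SCAP (0.071), PTPN5 (0.083), COQ9 (0.092) and TMEM144 (0.093), with a median of 0.63. For IVL they were SP7 (0.044), PLEKHA7 (0.064), CASQ2 (0.065), DIXDC1 (0.076) and VSIG1 (0.089), with a median of 0.58. A pattern over 4 libraries has few degrees of freedom, and the likeness says nothing of shared control.

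At the borders of the window, the outermost loop inside on the left, of 115 kb from THEM4, had 14 counts in APH, 22 in DMSO, 12 in HU and 22 in H2O. Just outside, 2 loops end in the adjoining bin: that of 65 kb had 56, 39, 48 and 33 counts in the same order, and that of 30 kb had 54, 36, 36 and 42. Their HU vs H2O ratios had opposite signs, 0.56 and -0.21. On the right the outermost loop inside is that between NPR1 and RAB13, and the nearest outside, of 85 kb from TPM3, had 50, 29, 41 and 38 counts.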

How the data were processed

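The data are 1 list of called SMC1 HiChIP loops per library, build hg38, demultiplexed with bcl2fastq 2.17 and with peaks called by MACS3 3.0.1, per the submitters' processing notes. Which aligner, loop caller and filters were used is not stated in those notes. Files had no header, so column meanings were read from the values. Each deposited count is a raw number of contacts between 2 bins of 5 kb, 12 or more. Another deposited column is taken as the expected count, which the observed one exceeds at least 2.00 times, and the deposited adjusted p-value (false discovery rate) is below 0.01 for every loop and was not used. The lists held 27395 loops and 732695 counts in APH, 17660 and 449565 in DMSO, 21448 and 550828 in HU, and 22446 and 575756 in H2O. Total read depth is unknown.

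Counts of loops listed in all 4 libraries with the same bins were divided by library totals summed over the same loops (376948, 300320, 322048 and 325634 in the same order), with no pseudocount. Ratios carry 95% exact conditional binomial intervals, and shares exact binomial ones. No p-value was computed, with 1 library per group. Genes are 19974 protein-coding genes of RefSeq GRCh38.p14, and a loop counts for a gene when an anchor overlaps its body. Members, lists and clusters were chosen with earlier results of these data known. Named are the 3 genes, genes of the lists with a listed loop, the loops on the 3 genes, those with most counts, those whose interval excludes 1 and those listed by drug or vehicle libraries alone. The division into clusters was made after seeing values. The steps were tested on simulated data. Python 3.11.15, numpy 2.4.6, pandas 2.3.3, scipy 1.17.1 and matplotlib 3.10.9 were used. The S100A7L2 entry of the S100 list was not matched. Alternatives covered scaling, vehicle, matching, minimum counts, span class, expected counts and gene ends.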

Additional observations from a re-analysis of the deposited data

Results flagged for a closer look

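Some values had opposite signs in the APH vs DMSO and HU vs H2O contrasts, and in no case was the difference between the contrasts tested. The loops near S100A8 and S100A9 had a log2 ratio of -0.41 in the APH contrast and 0.37 in the HU contrast. S100A5 stood at -0.42 and 0.52. S100A1, whose value is that of the loop of 55 kb from the bin next to S100A2, and that loop by itself stood at 0.67 and -0.021. The loop of 60 kb to S100A2 stood at -0.26 and 0.016. All these intervals included a ratio of 1 in both contrasts.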

How the results depend on the processing

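No paired analysis was possible because each group holds 1 library. Of 154 values recomputed under alternatives, 125 kept their direction and did not move beyond their interval or, for counts, 1.5 times, while 28 moved and 1 reversed. Scaling by all listed loops reversed the locus in APH vs DMSO, to -0.22, with 0 loops above and 4 below a ratio of 1 and 0 genes above and 1 below (S100A2). Dividing by the expected count took the locus to 0.016 for APH and to 0.17 for HU, S100A13 to 0.21 in APH vs DMSO, and the loops above a ratio of 1 to 1 and 0, with 1 below in HU vs H2O (the loop of 115 kb from THEM4) and 0 genes above in both; the cause was not tested. Relative to span class, 1 loop for APH and 2 for HU lay above, and the locus in APH vs DMSO stood at 0.11 (-0.02 to 0.25). Against DMSO, 2 loops lay above for HU. Anchors matched within 1 bin add pairs not listed in every library, with 0 for a library that lacks the pair. This gave 7 of the 13 merged loops and 4 genes above in HU vs H2O. It took S100A13 to 0.81 in that contrast and S100A14 to 0.95 (0.42 to 1.49). In APH vs DMSO S100A14 stood at 0.98 (0.43 to 1.55). Assignment to gene ends gave 4 genes above in each contrast. With at least 24 counts the lists held 22 locus loops in APH, 12 in DMSO, 24 in HU and 14 in H2O, and with at least 20 scaled counts 24, 21, 30 and 21. Counts per loop limit what can be seen.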

Other observations

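Contacts of IVL from the cluster to its left ended in different bins in different libraries. The bin that begins at 152870001, left of SMCP, was joined to the IVL promoter bin in APH, with 31 counts, and to the adjoining bin in DMSO, with 20 counts, and neither pair was listed elsewhere. The SMCP bin of the shared loop was joined to that adjoining bin in H2O with 24 counts. In HU the SMCP bin that begins at 152875001 was joined to the IVL promoter bin, with 16 counts. With all listed loops on IVL summed, whichever bins they use, the counts were 66 in APH, 41 in DMSO, 49 in HU and 46 in H2O, with 2 loops listed in each library. SMCP had 2 listed loops with 53 counts in APH, 5 with 79 in DMSO, 5 with 104 in HU and 4 with 83 in H2O.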
